A study of Mus musculus with 6 samples.

Results

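Interferon-stimulated genes are the genes that a cell switches on after an interferon has bound its receptor. The 42 genes described here are a list of well-known members of this response, matched to the count table by gene symbol alone. The list was drawn up with earlier results of these data known. All 42 symbols were present among the 44788 symbols in the table, and 34 of them had enough counts to be tested among 14550 tested genes. Their RNA was measured by bulk RNA sequencing of whole tail tendon from 3 WT mice and 3 *Mkx*-/- mice, all labelled as C57BL/6 and 3 weeks old, with no treatment in the labels of either group. *Mkx* encodes Mohawk, a homeobox transcription factor of tendon cells, and tendons without it are used as a model of heterotopic ossification, in which bone forms inside the tendon. The *Mkx*-/- mice came from another laboratory, and the sources used here do not describe the allele, say whether the mice were littermates, or state whether tendons of several mice were pooled. The study's text also gives an age that differs from that in the labels. The comparison asks how the level of each gene in *Mkx*-/- tendon differed from that in WT tendon.

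Type I interferons act through the IFNAR1 and IFNAR2 receptor chains and the kinases JAK1 and TYK2, which pass the signal on to transcription factors. STAT2 and IRF9 are part of a complex that binds the interferon-stimulated response element (ISRE) in the promoters of many induced genes, whereas interferon gamma acts mainly through the gamma-activated site (GAS). The products include sensors of viral RNA, enzymes and membrane proteins that block viral replication, and the machinery that loads peptides on MHC class I molecules. Many of these genes are also transcribed at a low, tonic level in tissues that carry no infection.

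The 6 libraries held 10835070 to 14160301 counts, and the counts are given below as CPM, counts scaled by edgeR's TMM method to a common library size of 1000000 counts on tested genes. *Mkx*, the disrupted gene, had 1381 to 1825 counts in WT and 491 to 620 in *Mkx*-/- libraries, so reads on the gene remained in all 3 *Mkx*-/- libraries. WT replicate 3 stood apart, being the only library with counts for the Y-linked gene *Ddx3y* (301 counts) and with nearly no *Xist* (1 count, against 1289 to 1866 elsewhere). Tendon markers made up a large part of every library, summing to 377100 to 520700 CPM over 7 genes in WT and 240600 to 335300 CPM in *Mkx*-/- tendons. Most of this was *Col1a1* and *Col1a2*, at means of 185330 and 257910 CPM in WT, while *Scx* had a WT mean of 37.0 CPM.

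Over the whole list, the interferon-stimulated genes were split evenly in direction, and 3 of them passed the test. Of the 34 tested members, 17 had a positive and 17 a negative log2 fold change (*Mkx*-/- relative to WT), and the median was -0.03, with quartiles of -0.42 and 0.14. Over all 14550 tested genes the median was -0.004, the quartiles were -0.23 and 0.25, and 49.5% of the values were positive. At an adjusted p under 0.05 (edgeR quasi-likelihood test, Benjamini-Hochberg over all tested genes), 1 member was higher in *Mkx*-/- tendon, which is 2.94% of those tested against 3.18% of all genes. That member was *B2m*. In the other direction 2 members, *Oas2* and *Ifitm1*, were lower, which is 5.88% against 2.26% of all genes. With a log2 fold change above 1 asked for as well, 0 members were called higher (1.89% of all genes), and with one below -1 both lower members were still called (1.33% of all genes). At an unadjusted p under 0.05 there were 3 members higher (8.82%, against 12.5% of all genes) and 6 lower (17.6%, against 10.1%). The libraries of the genotypes did not overlap for 2 members that were higher (5.88%, against 14.6% of all genes) and for 7 that were lower (20.6%, against 13.6%). DESeq2 called 2 of 42 members higher, *B2m* and *H2-D1*, and the same 2 lower. Over all genes it called 768 higher and 565 lower of 25763 with a p-value. Some genes with a p-value had no adjusted p from DESeq2 and could not be called, among them the members *Oas3*, *Oasl1*, *Mx1* and *Ifi44*. Without WT replicate 3, edgeR called 1 of 34 members higher and 0 lower. Over all genes that fit called 117 higher and 127 lower of 14900, so calls fell there as well.

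**Figure D1:**
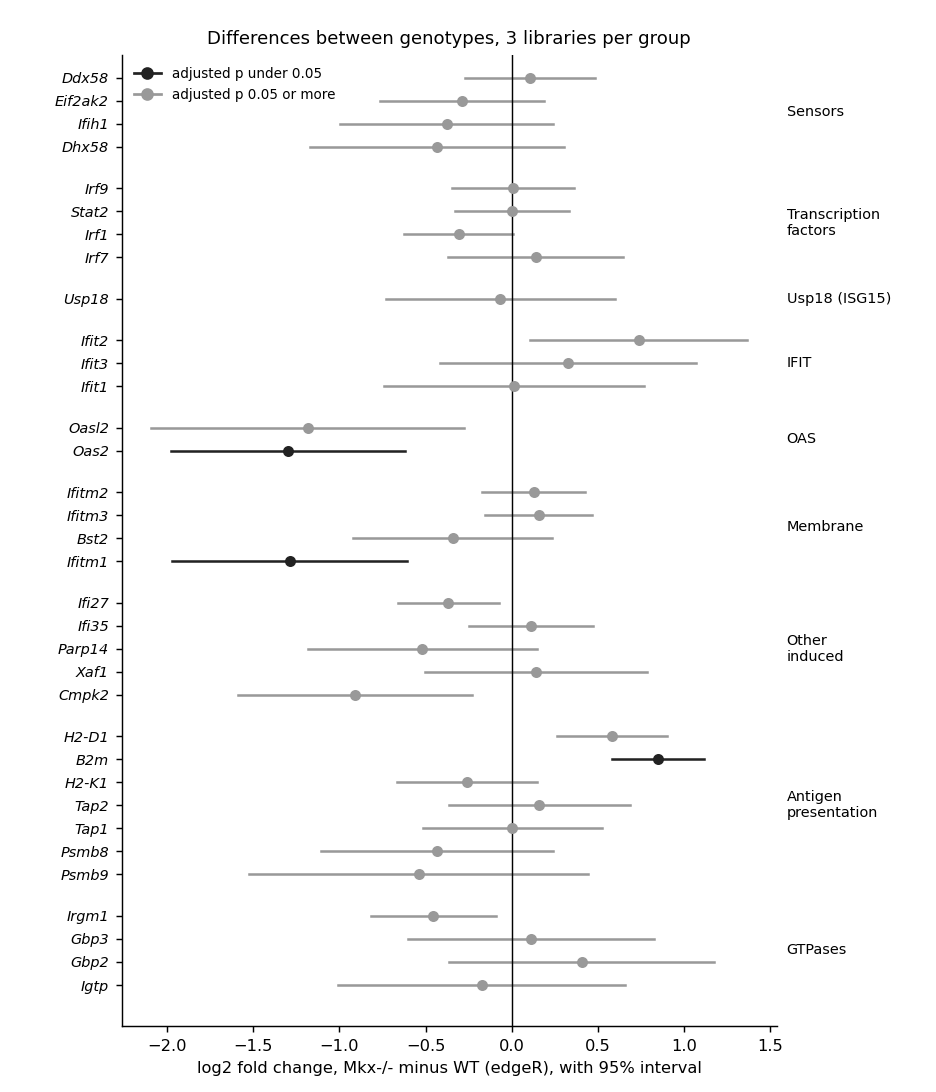
The log2 fold change of each of the 34 tested members (x axis, *Mkx*-/- minus WT, edgeR) is drawn as a point with its 95% confidence interval as a line, grouped by role, with black marking an adjusted p under 0.05. *B2m* lies to the right of 0 at 0.85, *Oas2* and *Ifitm1* lie to the left at -1.30 and -1.29, and 25 of the other 31 intervals include 0.

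The members differed widely in level. Per kilobase of exon, the most abundant member in WT tendon was *Ifitm2* at 218 ± 19.6 CPM per kb (SD, n = 3), followed by *B2m* at 98.2 ± 6.07, *H2-D1* at 67.5 ± 8.30, *Ifitm3* at 51.3 ± 4.66, *H2-K1* at 37.3 ± 3.52 and *Bst2* at 17.8 ± 5.44. The 3 WT libraries of each of these genes lay above all 3 of the next gene in that order. *Isg15*, one of the most strongly induced genes in cells treated with interferon, stood at 1.04 ± 0.13 CPM per kb, rank 22 of the 40 members with a length. At the low end, *Mx1* stood at 0.081 ± 0.052 CPM per kb and *Oas3* at 0.0063 ± 0.011. The whole list took 0.0652% to 0.0842% of the counts in WT and 0.0883% to 0.11% in *Mkx*-/- libraries. These are shares of unscaled totals, and scaling by total counts only moved the median log2 fold change of all genes to 0.25. They also include *B2m* and *H2-D1*, the tested members that were higher without overlap. *Ifi27* and *Psmb9* could not be given a length from the annotation used here, so they are left out of comparisons between genes.

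**Figure D2:**
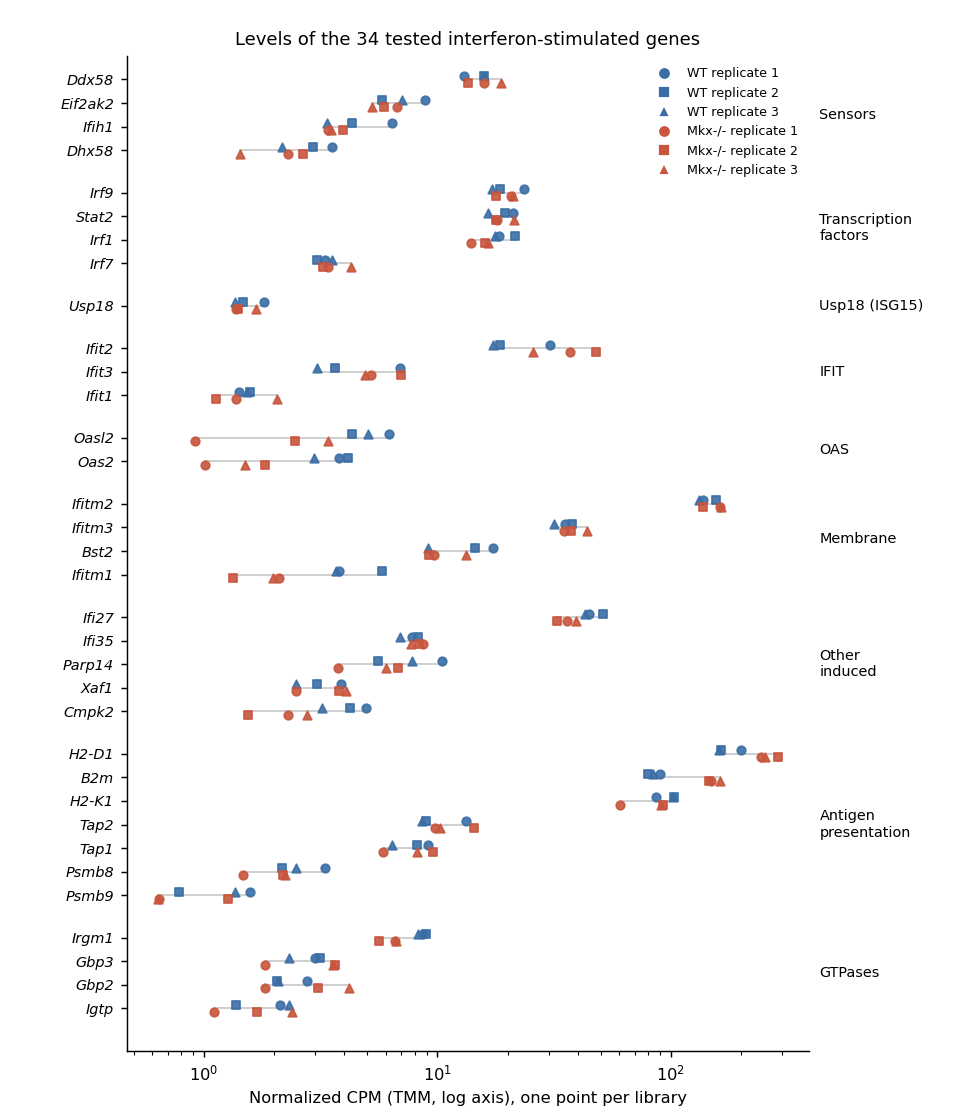
Normalized CPM (x axis, log scale) of the 34 tested members in each of the 6 libraries, with blue symbols for WT, red symbols for *Mkx*-/- and 1 symbol shape per replicate number, grouped by role and sorted by mean CPM. The symbols of the genotypes intermingle for most members, and they separate for *B2m* and *H2-D1* (red higher) and for *Oas2*, *Oasl2*, *Ifitm1*, *Cmpk2*, *Ifi27*, *Irf1* and *Irgm1* (blue higher).

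Promoter sequence was read next, because many genes of this kind are known targets of the ISRE. RefSeq windows (GRCm38.p6, 250 bases before to 50 after the start of transcription) were at hand for 34 of the 42 members, some with more than 1 window, and a member counts as holding a motif if any of its windows did. For *Stat2*, *Irf7*, *Bst2* and *Gbp3*, the bases just after the start were not found in a GENCODE coding transcript of the gene. The start sites of these genes, and distances from them, are therefore less certain. The ISRE was searched as the letters GAAA, any NN, then GAAA, and the GAS as TTC, any NNN, then GAA, on both strands and with overlapping matches allowed. The ISRE letters stood in 18 of the 34 members (52.9%), against 3.99% of all 27025 genes with a window, or 3.44% of 32851 windows. The GAS letters stood in 9 members (26.5%), against 9.55% of all genes, or 8.3% of windows. In *Bst2* and *Ifitm3* a GAS match overlapped an ISRE match. The stretches below show 4 members whose sequences differ in this respect, each covering the 100 bases before the start, read 5′ to 3′ in the direction of transcription, with ISRE matches in capitals.
*Isg15* (chr4:156200819-156200918, minus strand): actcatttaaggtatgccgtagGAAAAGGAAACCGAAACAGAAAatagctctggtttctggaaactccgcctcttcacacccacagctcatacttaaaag
*Irgm1* (chr11:48871421-48871520, minus strand): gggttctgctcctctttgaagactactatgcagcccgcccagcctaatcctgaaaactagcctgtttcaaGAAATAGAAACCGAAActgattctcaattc
*Ifitm2* (chr7:140955962-140956061, minus strand): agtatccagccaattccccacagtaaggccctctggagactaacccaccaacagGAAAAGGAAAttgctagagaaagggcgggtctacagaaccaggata
*Ifitm1* (chr7:140967976-140968075, plus strand): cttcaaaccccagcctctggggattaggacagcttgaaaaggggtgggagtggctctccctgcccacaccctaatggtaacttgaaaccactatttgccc
In *Isg15* the run in capitals holds 3 overlapping matches and in *Irgm1* it holds 2, *Ifitm2* has a single match, and *Ifitm1* has none in its window. A match of letters is a description and does not show that a factor was bound. Only these exact letters were searched, so a missing match does not show that a promoter lacks such an element.

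**Figure D3:**
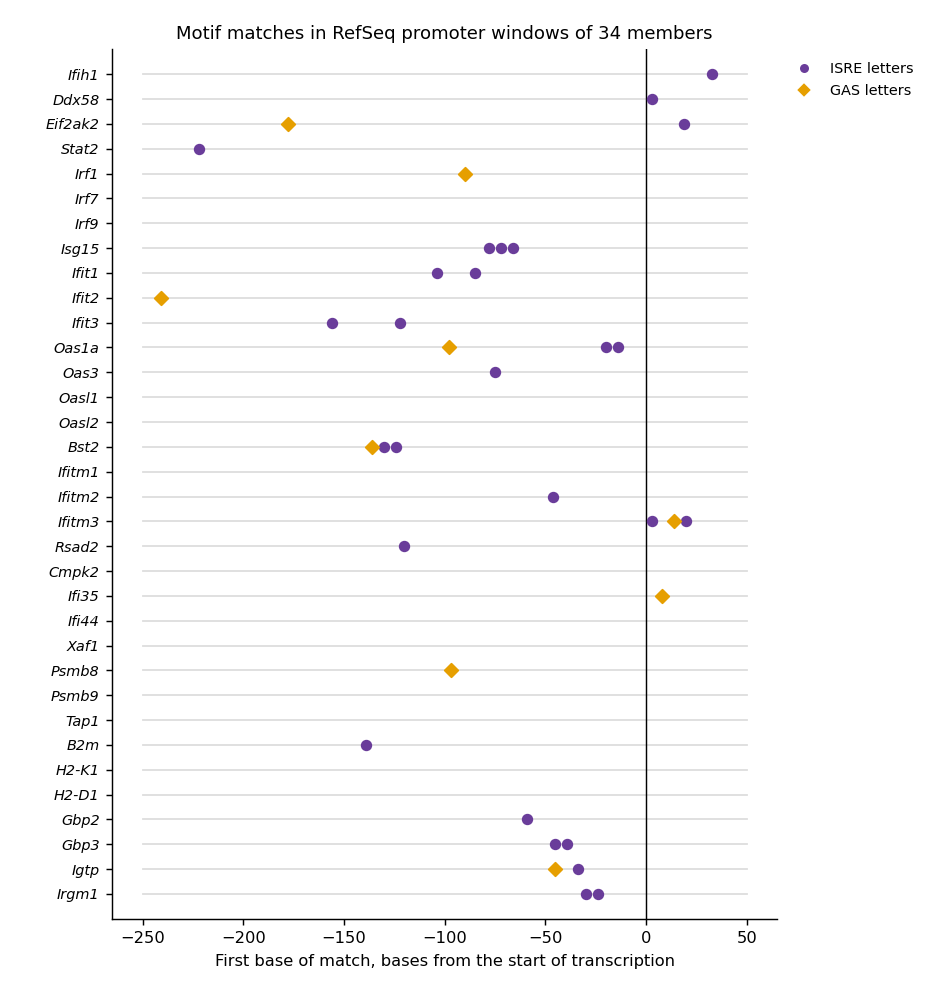
Position of each ISRE match (purple circles) and GAS match (orange diamonds) in the windows of 34 members, with the x axis giving the distance in bases of the first base of the match from the start of transcription. ISRE matches stand in the windows of 18 of the 34 members and GAS matches in those of 9, most of them upstream of the start.

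Members with and without the ISRE letters covered overlapping ranges of log2 fold change. The 14 tested members with a match had log2 fold changes from -0.45 to 0.85 with a median of 0.06, with 9 positive and 5 negative. The 14 tested members with no match ran from -1.29 to 0.74 with a median of -0.13, with 7 positive and 7 negative. *B2m*, the member called higher, had a match, and *Ifitm1*, called lower, had none. *Oas2* was not among the genes with a window.

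The 4 transcription factors of the response gave 0 calls with edgeR and with DESeq2, and 0 at an unadjusted p under 0.05 with edgeR. *Irf9*, the DNA-binding subunit of the complex, measured 23.4, 18.6 and 17.1 CPM in the WT libraries and 20.6, 17.8 and 21.1 CPM in the *Mkx*-/- libraries. These values overlapped, and the log2 fold change was 0.01 with a 95% interval from -0.35 to 0.36 (adjusted p = 0.983). Its partner *Stat2* differed by 0.00 on the log2 scale, with an interval from -0.33 to 0.33. *Irf7*, a factor that amplifies interferon production, had a log2 fold change of 0.14 (interval -0.37 to 0.65). *Irf1*, a factor induced mainly through the GAS by interferon gamma, measured 18.4, 21.5 and 17.6 CPM in WT and 13.9, 16.0 and 16.5 CPM in *Mkx*-/- tendons. Its libraries did not overlap, yet the log2 fold change of -0.31 had an interval from -0.62 to 0.01 and did not pass the test (adjusted p = 0.236).

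The sensors of double-stranded and viral RNA gave 0 calls among 4 tested members at the adjusted threshold, and also 0 at an unadjusted p under 0.05 with edgeR and 0 with DESeq2. *Ddx58*, which encodes RIG-I, was at 13, 15.9 and 15.9 CPM in WT and 15.8, 13.5 and 18.8 CPM in *Mkx*-/- tendons, and the difference was 0.10 on the log2 scale (adjusted p = 0.758). *Ifih1*, which encodes MDA5, was at 6.38, 4.32 and 3.36 CPM in WT and 3.39, 3.93 and 3.49 CPM in *Mkx*-/- tendons. WT replicate 1 was above the other 5 libraries for *Ifih1*, and the log2 fold change was -0.38 (adjusted p = 0.457). *Dhx58*, which encodes the related protein LGP2, had a log2 fold change of -0.43 (interval -1.17 to 0.30), and *Eif2ak2*, the kinase PKR that halts translation, had one of -0.29 (interval -0.77 to 0.19).

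ISG15 is a ubiquitin-like protein that is joined to other proteins, and USP18 is the protease that removes it and also dampens receptor signalling. *Isg15* was covered by 10, 7 and 11 reads in WT and by 6, 5 and 12 reads in *Mkx*-/- tendons, too few to reach the count filter. *Usp18* measured 1.81, 1.47 and 1.36 CPM in WT and 1.37, 1.41 and 1.66 CPM in *Mkx*-/- tendons, so the groups overlapped. Its log2 fold change was -0.07, with an interval from -0.73 to 0.60 (adjusted p = 0.926).

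Among the antiviral effectors, the OAS group was the one whose tested members both lay lower in *Mkx*-/- tendon. OAS proteins make short 2′-5′-linked adenylate chains that activate RNase L, which cuts viral and cellular RNA, and the OAS-like proteins share their fold. *Oas2* (chr5:121180342-121199862 in mm9, minus strand) measured 3.78, 4.12 and 2.96 CPM in WT and 1.01, 1.83 and 1.51 CPM in *Mkx*-/- tendons, from 37 to 48 and from 11 to 26 counts. All 3 *Mkx*-/- libraries lay below all 3 WT libraries, and *Oas2* fell by 1.30 on the log2 scale (standard error 0.30, adjusted p = 0.0441, edgeR). The call was close to the threshold and was lost on leaving out any 1 library, with adjusted p of 0.0707, 0.13 and 0.0888 without WT replicates 1, 2 and 3, and 0.0917, 0.0794 and 0.124 without *Mkx*-/- replicates 1, 2 and 3. DESeq2 gave an adjusted p of 0.0237.

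*Oasl2* (chr5:115346943-115362243 in mm9, plus strand), an OAS-like gene, was also at its lowest in the 3 *Mkx*-/- libraries. It measured 6.22, 4.32 and 5.05 CPM in WT and 0.92, 2.46 and 3.41 CPM in *Mkx*-/- tendons. The groups did not overlap and *Mkx*-/- replicate 1 was lowest, but the log2 fold change of -1.18 (standard error 0.40) did not pass (adjusted p = 0.122, edgeR, and 0.0615, DESeq2). The ratio of *Oas2* to *Oasl2* was 0.61, 0.95 and 0.59 in WT and 1.10, 0.74 and 0.44 in *Mkx*-/- libraries, and these values overlapped (exact two-sided permutation p = 1, the smallest possible with 3 against 3 being 0.1). The remaining OAS members did not reach the count filter, with 9 to 12 counts in WT and 5 to 10 in *Mkx*-/- for *Oas1a*, 4 to 10 and 2 to 7 for *Oasl1*, and at most 1 count in any library for *Oas3*. With every gene of at least 1 count let in, *Oas1a* was at -0.62 (standard error 0.52, adjusted p = 0.639) and *Oasl1* at -0.50 (standard error 0.67, adjusted p = 0.731) on the log2 scale (edgeR). Under that filter *Oasl2* passed, at -1.17 with an adjusted p of 0.0433. Summed over its 5 genes, the group was at 9.69 to 11.3 CPM in WT and 3.11 to 5.55 CPM in *Mkx*-/- tendons.

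The IFIT genes, whose products bind viral RNA and block its translation, all had positive log2 fold changes, under each scaling tried. *Ifit2* was at 30.3, 18.6 and 17.3 CPM in WT and 36.9, 47.7 and 25.6 CPM in *Mkx*-/- tendons. WT replicate 1 lay above *Mkx*-/- replicate 3, so the groups overlapped, and the log2 fold change of 0.74 (standard error 0.28) did not pass (adjusted p = 0.158). Without WT replicate 1 it was 1.04 with an adjusted p of 0.0396, and without each of the other libraries it was 0.50 to 0.94 and did not pass, the highest adjusted p being 0.389 without *Mkx*-/- replicate 2. With every gene of at least 1 count let in, it was 0.75 with an adjusted p of 0.0428 (edgeR). *Ifit3* and *Ifit1* had log2 fold changes of 0.33 (interval -0.42 to 1.07) and 0.01 (interval -0.74 to 0.77). The *Ifit2* windows held no ISRE letters, whereas those of *Ifit1* and *Ifit3* held a pair of matches each.

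Among the membrane proteins that hold back enveloped viruses, 1 gene of a cluster was called lower and its neighbours were not. *Ifitm1*, *Ifitm2* and *Ifitm3* lie together on chromosome 7 and encode small membrane proteins that block the entry of viruses into the cell. *Ifitm1* (chr7:148153120-148155724 in mm9, plus strand) measured 3.78, 5.79 and 3.68 CPM in WT and 2.11, 1.33 and 1.98 CPM in *Mkx*-/- tendons. The groups did not overlap, and *Ifitm1* fell by 1.29 on the log2 scale (standard error 0.30, adjusted p = 0.0458, edgeR, and 0.0168, DESeq2). This call was kept without WT replicate 1 (adjusted p = 0.0433) and lost without any of the other libraries, with adjusted p of 0.13 and 0.0948 without WT replicates 2 and 3 and of 0.0709, 0.135 and 0.113 without *Mkx*-/- replicates 1, 2 and 3.

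*Ifitm2* and *Ifitm3* did not pass the test. *Ifitm2* was at 137, 156 and 132 CPM in WT and 163, 137 and 164 CPM in *Mkx*-/- tendons (log2 fold change 0.13, interval -0.17 to 0.43, adjusted p = 0.62). *Ifitm3* was at 35.1, 37.8 and 31.5 CPM in WT and 34.7, 37.5 and 43.9 CPM in *Mkx*-/- tendons (log2 fold change 0.16, interval -0.16 to 0.47). The ratio of *Ifitm1* to *Ifitm3* was 0.108, 0.153 and 0.117 in WT and 0.0607, 0.0356 and 0.0451 in *Mkx*-/- libraries, which did not overlap (exact two-sided permutation p = 0.1, the smallest the design allows, and 0.15 after adjustment over the 6 ratios computed). These 3 genes are close paralogs, and how reads with several matches were counted is not given in the sources used here. *Bst2*, or tetherin, which keeps new virus particles on the cell surface, had a log2 fold change of -0.34 (interval -0.92 to 0.24).

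**Figure D4:**
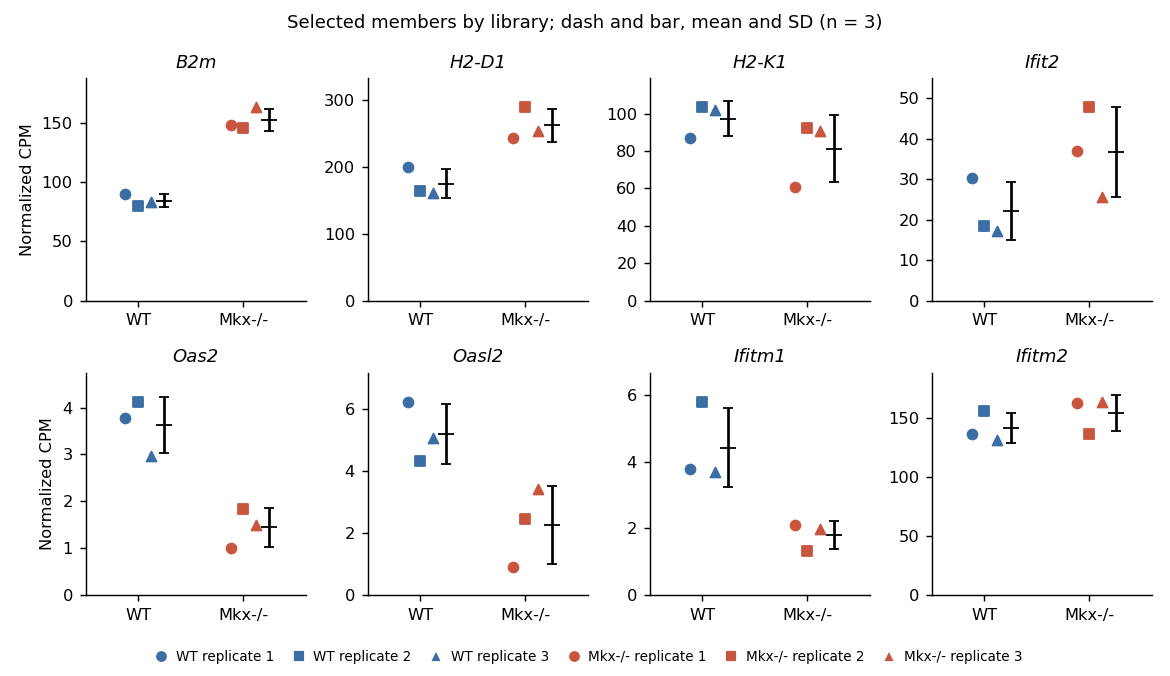
Normalized CPM (y axis, starting at 0) in each of the 6 libraries for 8 members, with the mean and SD of each genotype (n = 3) drawn beside the points. *B2m* and *H2-D1* are higher in all 3 *Mkx*-/- libraries while *H2-K1* is not, and *Oas2*, *Oasl2* and *Ifitm1* are lower in all 3 while *Ifitm2* overlaps.

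The Mx GTPases, which trap viral ribonucleoproteins, were barely detected. *Mx2* had 12, 5 and 3 counts in WT and 3, 6 and 7 counts in *Mkx*-/- libraries, and *Mx1* had 6, 1 and 4 against 1, 3 and 8. Neither reached the count filter. With every gene of at least 1 count let in, their log2 fold changes were -0.40 (standard error 0.66, adjusted p = 0.801, edgeR) for *Mx2* and 0.06 (standard error 0.84, adjusted p = 0.99, edgeR) for *Mx1*, so a difference was not detectable at this depth.

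The 7 other induced members summed to 65.7 to 73.8 CPM in WT and 53.8 to 60.3 CPM in *Mkx*-/- tendons, without overlap. Of the 5 tested, 0 passed the adjusted threshold with edgeR or DESeq2. With edgeR, 2 were lower at an unadjusted p under 0.05, as were 10.1% of all genes. *Ifi27*, which encodes a small mitochondrial protein, made up most of the sum in every library. *Ifi27* was at 44.7, 51.2 and 43.1 CPM in WT and 36.1, 32.5 and 39.2 CPM in *Mkx*-/- tendons, with no overlap (log2 fold change -0.37, standard error 0.13, adjusted p = 0.133). *Cmpk2*, a mitochondrial nucleotide kinase, was at 4.96, 4.22 and 3.20 CPM in WT and 2.29, 1.55 and 2.77 CPM in *Mkx*-/- tendons. These groups did not overlap either, and the log2 fold change was -0.91 (standard error 0.30, adjusted p = 0.114). *Parp14*, an ADP-ribosyltransferase, had a log2 fold change of -0.52 (interval -1.18 to 0.15), while *Ifi35* and *Xaf1* were at 0.11 and 0.14.

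*Rsad2*, which encodes viperin, an enzyme that makes a chain-terminating nucleotide, is the neighbour of *Cmpk2* on chromosome 12. It was covered by 22, 8 and 23 reads in WT and by 3, 10 and 4 in *Mkx*-/- libraries. In CPM this was 0.79 to 1.84 in WT and 0.27 to 0.70 in *Mkx*-/- tendons, without overlap. *Rsad2* did not reach the count filter, and when every gene with at least 1 count was let in, its log2 fold change was -1.69 (standard error 0.54, adjusted p = 0.0659, edgeR). *Ifi44* had 3, 3 and 5 counts in WT and 2, 4 and 4 counts in *Mkx*-/- libraries.

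Antigen presentation held *B2m*, the member called higher. The 7 genes encode the chains of MHC class I, the TAP transporter that carries peptides into the endoplasmic reticulum, and subunits of the immunoproteasome that cuts them. *B2m*, the light chain shared by the class I molecules (chr2:121973422-121978819 in mm9, plus strand), measured 90.0, 79.6 and 83.7 CPM in WT and 148, 146 and 163 CPM in *Mkx*-/- tendons. The groups were far apart relative to their spread, at 84.4 ± 5.22 and 152 ± 9.48 CPM (SD, n = 3). *B2m* was 1.80-fold higher in *Mkx*-/- tendon, or 0.85 on the log2 scale with an interval from 0.58 to 1.12 (adjusted p = 0.00652, edgeR). It stayed under 0.05 in all 14 alternatives tried, the highest adjusted p being 0.0425 without WT replicate 3. The gene overlaps *Patl2* on the opposite strand, and *Patl2* had 1 count in all 6 libraries together.

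The classical heavy chains *H2-D1* and *H2-K1* differed in the size of their log2 fold changes, and in sign except with scaling by total counts only, where *H2-K1* was at 0.01 and *H2-D1* at 0.83. *H2-D1* (chr17:35399675-35404444 in mm9, plus strand) was at 199, 163 and 161 CPM in WT and 242, 289 and 254 CPM in *Mkx*-/- tendons, without overlap. Its log2 fold change of 0.58 (interval 0.26 to 0.90) narrowly missed the threshold with edgeR (adjusted p = 0.051) and passed with DESeq2 (adjusted p = 0.00507), and without WT replicate 1 it was 0.69 with an adjusted p of 0.0228 (edgeR). Without each of the other libraries the adjusted p was 0.0888 to 0.164. *H2-K1* (chr17:34132962-34137278 in mm9, minus strand) was at 86.7, 103 and 102 CPM in WT and 60.5, 92.3 and 90.8 CPM in *Mkx*-/- tendons (log2 fold change -0.26, interval -0.67 to 0.15, adjusted p = 0.438). The ratio of *H2-D1* to *H2-K1* CPM was 2.30, 1.58 and 1.58 in WT and 4, 3.13 and 2.79 in *Mkx*-/- libraries, and that of *B2m* to *H2-K1* was 1.04, 0.77 and 0.82 against 2.45, 1.58 and 1.80. Neither ratio overlapped between genotypes (exact two-sided permutation p = 0.1 for each, adjusted 0.15 over the 6 ratios). Class I heavy chains are near-identical in long stretches, so the split of reads between *H2-D1*, *H2-K1* and the related class I genes is uncertain.

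The promoters of these 3 genes are shown because the light chain from *B2m* pairs with either heavy chain, *H2-D1* or *H2-K1*, in separate class I molecules. The *B2m* and *H2-D1* stretches run from 200 to 101 bases before the start, and the *H2-K1* stretch runs from 154 to 55, the offset at which it lines up with that of *H2-D1* (RefSeq, GRCm38.p6, 5′ to 3′ in the direction of transcription, ISRE matches in capitals).
*B2m* (chr2:122147487-122147586, plus strand): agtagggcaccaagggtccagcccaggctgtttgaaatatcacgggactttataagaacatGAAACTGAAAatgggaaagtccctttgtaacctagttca
*H2-D1* (chr17:35262894-35262993, plus strand): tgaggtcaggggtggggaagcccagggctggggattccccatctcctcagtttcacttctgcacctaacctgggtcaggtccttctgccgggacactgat
*H2-K1* (chr17:34000388-34000487, minus strand): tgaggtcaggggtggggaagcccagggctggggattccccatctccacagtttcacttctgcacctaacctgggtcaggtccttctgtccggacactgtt
At that offset of 46 bases, 169 of 204 compared bases of the *H2-D1* and *H2-K1* windows were identical (82.8%). Neither gene had the exact ISRE or GAS letters in its windows. Variants of these letters were not searched, so both genes may still hold such an element. The *B2m* window held a single ISRE match, 139 bases before the start.

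The loading machinery gave 0 calls with edgeR and with DESeq2, and 0 at an unadjusted p under 0.05 with edgeR. *Tap1* and *Tap2*, the transporter chains, had log2 fold changes of 0.00 (interval -0.51 to 0.52) and 0.16 (interval -0.36 to 0.69). *Psmb8* and *Psmb9*, the induced proteasome subunits, had values of -0.44 (interval -1.11 to 0.24) and -0.54 (interval -1.52 to 0.45). Summed over its 7 genes, antigen presentation stood at 366 to 403 CPM in WT and 469 to 554 CPM in *Mkx*-/- tendons. Within that sum only *B2m* and *H2-D1* separated the genotypes, whereas *H2-K1*, *Tap1*, *Tap2*, *Psmb8* and *Psmb9* overlapped.

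The interferon-induced GTPases, which attack the vacuoles of intracellular microbes, gave 0 calls among 4 tested with edgeR and with DESeq2. At an unadjusted p under 0.05 with edgeR, where 10.1% of all genes were lower, 1 of the 4 was lower. That gene was *Irgm1*, a regulator of the family. It was at 8.67, 8.93 and 8.25 CPM in WT and 6.59, 5.62 and 6.66 CPM in *Mkx*-/- tendons, with no overlap (log2 fold change -0.45, standard error 0.16, adjusted p = 0.136). *Gbp2* and *Gbp3* were at 0.41 and 0.11, and *Igtp* was at -0.17, each with an interval that included 0.

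Markers of cell types other than tendon cells also differed between the genotypes. In whole tissue, fewer cells of a type and less RNA per cell cannot be told apart. For the marker counts here and in the next paragraph, the shares over all tested genes were 49.5% positive, 3.18% called higher and 2.26% called lower. Of 16 macrophage and leukocyte markers, all 16 had negative log2 fold changes (median -0.55, and 15 of 16 negative with scaling by total counts only), and *Csf1r*, *Emr1* and *Mrc1* were called lower. Their sum was 699 to 755 CPM in WT and 449 to 557 CPM in *Mkx*-/- tendons, in the same direction as *Oas2*, *Ifitm1* and the OAS sum and opposite to *B2m*. The 4 tested MHC class II genes were also all negative (median -0.63), and they did not pass the test. The sums over the 5 genes of that list overlapped, at 53.1 to 136 CPM in WT and 20.2 to 80.1 CPM in *Mkx*-/- tendons, with *Mkx*-/- replicate 1 lowest, as it was for *H2-K1* and *Oasl2*.

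Lymphocyte and natural killer cell markers were nearly missing, with 0 of 10 testable, *Cd3e*, *Cd3d* and *Ncr1* at 0 in every library, and sums of 0.39 to 2.99 CPM in WT and 0.27 to 4.29 CPM in *Mkx*-/- tendons. The 6 dendritic cell markers summed to 3.34 to 5.67 and 3.11 to 6.74 CPM, with *Xcr1* at 0. Endothelial markers went the other way, with 9 of 10 positive, 1 (*Erg*) called higher, and sums of 68.1 to 86.8 CPM in WT and 121 to 187 CPM in *Mkx*-/- tendons. *Erg* took a large part of the *Mkx*-/- sums, at 44.1, 37.1 and 26.9 CPM against 6.78 to 9.69 CPM in WT. *Pecam1*, *Cdh5* and *Vwf* were highest in *Mkx*-/- replicate 3, and *Kdr*, *Tek*, *Emcn* and *Cldn5* overlapped between genotypes. All 10 skeletal muscle markers were positive and 3 were called higher (*Tnnt3*, *Tnnc2* and *Tnni2*), with sums of 23.7 to 276 CPM in WT and 451 to 2408 CPM in *Mkx*-/- tendons, and the 4 keratinocyte genes summed to 0.79 to 6.77 and 9.77 to 13.2 CPM. The part of these cell types in the differences of *B2m*, *Oas2* and *Ifitm1* was not tested.

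**Figure D5:**
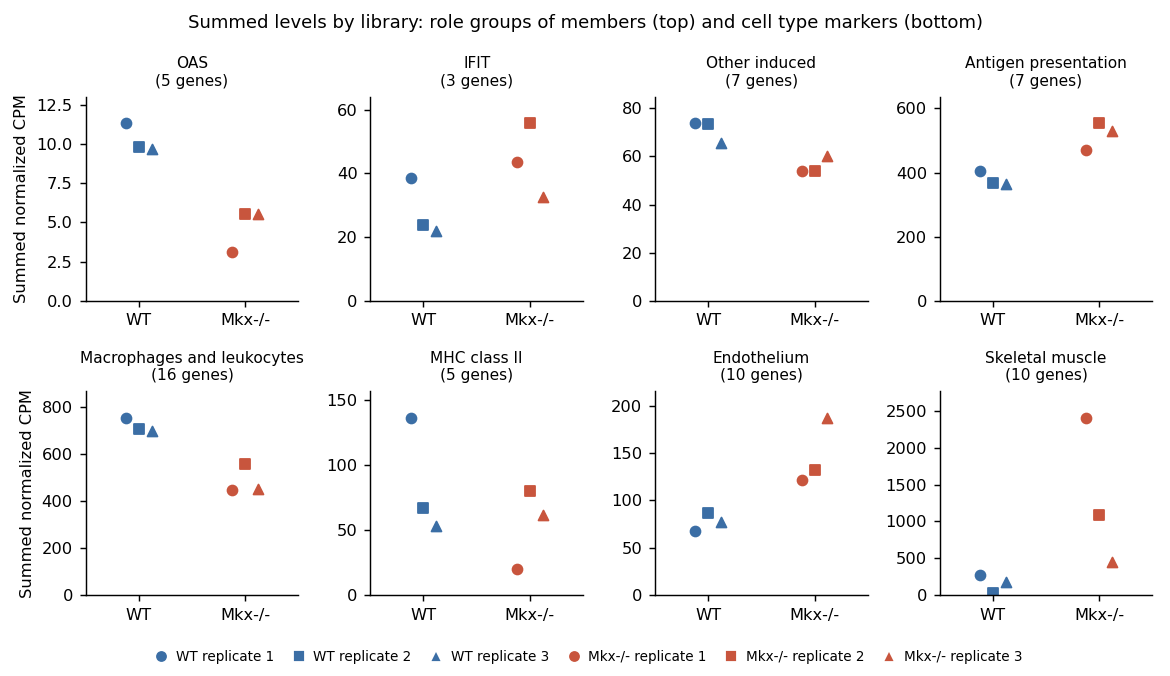
Summed normalized CPM (y axis, starting at 0) in each of the 6 libraries, for 4 role groups of interferon-stimulated genes in the top row and 4 lists of cell type markers in the bottom row. The OAS and macrophage sums are lower in all 3 *Mkx*-/- libraries, the antigen presentation, endothelium and muscle sums are higher in all 3, and the IFIT and MHC class II sums overlap. The antigen presentation and endothelium sums include genes whose own values overlapped, such as *H2-K1* and *Tek*.

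The rest of the pathway, 94 genes beyond the 42 members, was read in the same way. Of 19 interferon genes present in the table, 18 had 0 counts in every library and the other, *Ifnz*, had at most 2 counts in a library, so no interferon transcript could be compared at this depth. The receptor chains were all tested and gave 0 calls with edgeR, and 0 at an unadjusted p under 0.05. *Ifnar1* and *Ifnar2*, the type I receptor, had log2 fold changes of 0.03 (interval -0.22 to 0.28) and -0.07 (interval -0.35 to 0.21). *Ifngr1* and *Ifngr2*, the receptor of interferon gamma, were at -0.06 and 0.30, and *Ifnlr1* and *Il10rb*, the receptor of interferon lambda, were at 0.17 and 0.29.

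Over the 67 pathway genes tested, 23 had positive and 44 negative log2 fold changes (34.3% positive, against 49.5% of all genes), with a median of -0.13. Of the 67, 2 were called higher and 1 lower, where the shares called over all genes were 3.18% and 2.26%. The genes called higher were *Lgals9*, which encodes galectin-9, and *Ly6e*, which encodes a surface protein anchored in the membrane by lipid. *Lgals9* was at 28, 31.3 and 24.4 CPM in WT and 45.5, 48.5 and 43.9 CPM in *Mkx*-/- tendons (log2 fold change 0.72, standard error 0.13, adjusted p = 0.0202, edgeR). *Ly6e* was at 36.1, 41.1 and 32.8 CPM in WT and 51.5, 59.8 and 67.4 CPM in *Mkx*-/- tendons (log2 fold change 0.70, standard error 0.15, adjusted p = 0.0322, edgeR). *Samd9l*, an antiviral gene, was called lower, as *Oas2* and *Ifitm1* were. It was at 53.6, 31.0 and 32.4 CPM in WT and 17.9, 18.0 and 17.7 CPM in *Mkx*-/- tendons (log2 fold change -1.13, standard error 0.21, adjusted p = 0.0236, edgeR).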

How the data were processed

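Bulk RNA-seq counts of tail tendon from 3 WT and 3 *Mkx*-/- mice were analysed. Tendons were minced, RNA was extracted with TRIzol, and libraries were made with the Ion Total RNA-Seq Kit v2 for the Ion Proton. The values deposited by the authors are unnormalized counts, 1 integer for each symbol and library, made after trimming and alignment to mm9 with MapSplice. The counting program and annotation, the use of strand, and the handling of multiply aligned reads are not given in the sources used here. All 6 columns were matched by label, and 0 were unused.

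The deposited counts were scaled with TMM and filtered with filterByExpr, then fitted on genotype alone with edgeR 4.0.16 (R 4.3.3, quasi-likelihood, robust = FALSE, prior count 0.125, Benjamini-Hochberg over all 14550 genes). The biological coefficient of variation was 0.196. DESeq2 1.42.0 was an alternative. The scripts were tested on simulated data. Replicate libraries differed from each other by a chi-square of 8.22 to 40.1 per degree of freedom, so none was counted as a repeat. Nothing states that replicates were separate animals beyond their labels, so p-values measure the spread between these samples.

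The members, their role groups, the pathway and marker lists and the tests were chosen with earlier results of these data known. Values per library are given for members with an adjusted p under 0.05, for those without overlap at an unadjusted p under 0.05, and for the most abundant member and the smallest p in each role group. *Rsad2* and other untested members, *Ifitm3*, *H2-K1* and *Mkx* were added after their values were seen. Gene coordinates and exon lengths are from GENCODE for mm9, promoters are from RefSeq for GRCm38.p6, and no coordinates were converted between builds. Single-cell data were not analysed here, and an item withheld for evaluation is not reported here.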

Additional observations from a re-analysis of the deposited data

How the results depend on the processing

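Of the alternatives, RLE and upper-quartile scaling and the robust fit kept 1 member called higher and 2 lower. The number called lower was 0 with scaling by total counts only and 0 with the replicate block, and 0 to 1 on leaving out a library (1 without WT replicate 1), and it was 3 with a filter of 1 count in any library, where *Oasl2* was added. The number called higher was 0 with a log2 fold change beyond 1 asked for as well, 2 with DESeq2, 2 with scaling by total counts only, 3 with a filter of 1 count in any library, 2 with a filter of 10 counts in every library, and 1 to 3 on leaving out a library (3 without WT replicate 1). The median log2 fold change of the members was -0.219 with DESeq2, which took in all 42, 0.217 with scaling by total counts only, and from -0.208 (without *Mkx*-/- replicate 3) to -0.0089 (without WT replicate 1) on leaving out a library. Scaling by total counts moved the median of all genes to 0.25, and the fold changes of single genes are best read relative to that shift. Its split of calls over all genes was 1358 higher and 197 lower, against 463 and 329. The calls over all genes moved in other settings as well. With the filter of 1 count in any library they were 970 higher and 594 lower of 25777. With that of 10 counts in every library they were 400 and 295 of 13080. Without WT replicate 1 they were 539 and 439 of 14834, and without each other library 117 to 395 higher and 127 to 209 lower.

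Same-numbered libraries did not consistently deviate together (correlations of 0.0261, -0.21 and 0.297), so the numbers were not taken as pairs. Differently numbered libraries reached 0.398 (WT 1 with *Mkx*-/- 2) and -0.392 (WT 1 with *Mkx*-/- 3). Values centred within groups of 3 depend on each other, so these correlations cannot exclude that libraries were paired. The replicate block gave *Oas2* an adjusted p of 0.0823, *Ifitm1* one of 0.11 and *B2m* one of 0.0339 (edgeR), and 264 genes higher and 170 lower. Across the alternatives the adjusted p ran from 0.0201 to 0.13 for *Oas2* (under 0.05 in 6 of 14) and from 0.0152 to 0.135 for *Ifitm1* (7 of 14). *H2-D1* was under 0.05 in 5 of 14 and *Ifit2* in 2 of 14. Without WT replicate 3, the library with *Ddx3y* counts, *Oas2* had an adjusted p of 0.0888, *Ifitm1* one of 0.0948 and *B2m* one of 0.0425. Over all genes, the calls ran from 117 higher (without WT replicate 3) to 1358 (scaling by total counts only). Depth limits the 8 untested members, which had at most 23 counts in a library.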
